A study of Mus musculus with 12 samples.

Results

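The genes of the bone morphogenetic protein (BMP) pathway were followed in mouse intestinal muscle-layer cells grown with or without the BMP antagonist Noggin. They were 34 genes, chosen by symbol: 6 ligands, 6 receptors and a co-receptor counted together, 8 secreted antagonists and modulators, 6 SMAD proteins, and 8 genes comprising transcriptional targets and a decoy receptor. All 34 were found among the 52550 genes of the count table, and all 34 passed the filter on low counts, which left 17700 genes for testing. The samples were 12 RNA-seq libraries from wild-type mice, with 3 libraries in each of 4 groups. The P plate group was primary cells from the intestinal muscle layers kept for 28 days on a well plate in DMEM with 10% fetal bovine serum. The M plate group was kept as long on a well plate in a medium without listed serum. That medium held N2 and B27 supplements, N-acetylcysteine, recombinant murine Noggin at 100 ng/ml, recombinant human R-spondin1 (a Wnt agonist) at 1 µg/ml and the small molecule Y27632 at 10 µM. The M scaffold group was grown in the same M medium on an electrospun gelatin scaffold. The strips group was native muscle strips, included as a positive control, although its labels name day 28 and cultured cells as well. Serum, Noggin, R-spondin1 and Y27632 all differ between the P and M media, so their parts cannot be told apart in any comparison of these groups.

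BMP ligands are secreted dimers that bring together type I receptors (Bmpr1a, Bmpr1b, Acvr1, Acvrl1) and type II receptors (Bmpr2). The type I receptor kinase then phosphorylates the SMAD proteins encoded by Smad1, Smad5 and Smad9, which bind the Smad4 product and enter the nucleus to activate target genes, the Id genes foremost. Noggin binds BMP ligands outside the cell and keeps them from their receptors, and Smad6, Smad7 and Bambi encode inhibitors that the pathway itself can induce. In the gut wall, BMP signalling is known for patterning the muscle layers and the enteric nervous system, and Grem1-expressing cells beneath the crypts supply BMP antagonist to the base of the epithelium. The libraries measure the cells' own RNA: the Noggin protein added to the M medium is not measured.

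Library totals ran from 21396485 to 116643512 counts in genes, so 3 counts, taken as the detection floor, equalled 0.0271 to 0.125 CPM, the library-scaled count unit used throughout (edgeR's CPM with TMM factors). Strips carried the smooth muscle identity of their label: the 8 smooth muscle markers summed to 34060 to 35520 CPM there, against 2919 to 10990 CPM in the 9 cultured libraries. Enteric neuron markers were low in P plate, at 31.3 to 79.5 CPM summed over 9 genes with Chat at 0, against 144 to 627 CPM in the M groups. Fibroblast markers (9 genes) summed to 14460 to 19430 CPM in P plate, 30680 to 32480 CPM in M plate and 36020 to 45200 CPM in M scaffold. Enteric glia markers (8 genes) summed to at most 37.6 CPM in P plate, 176 to 219 CPM in M plate and 299 to 704 CPM in M scaffold. The part of these cell types in the members' changes between media was not tested. A pair of libraries stood apart. P plate replicate 1 had 20070 CPM summed over 8 macrophage markers against 3685 and 2188 CPM in the other P plate libraries, and 296 CPM over 5 mesothelium markers against 2955 and 2256 CPM. M scaffold replicate 3 had 358 CPM over 12 endothelium markers against 1689 and 1181 CPM in its group. For several results that rest on these libraries, though not for all, values without them are given as well. In such bulk samples, fewer cells of a type and less RNA per cell cannot be told apart.

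**Figure D1:**
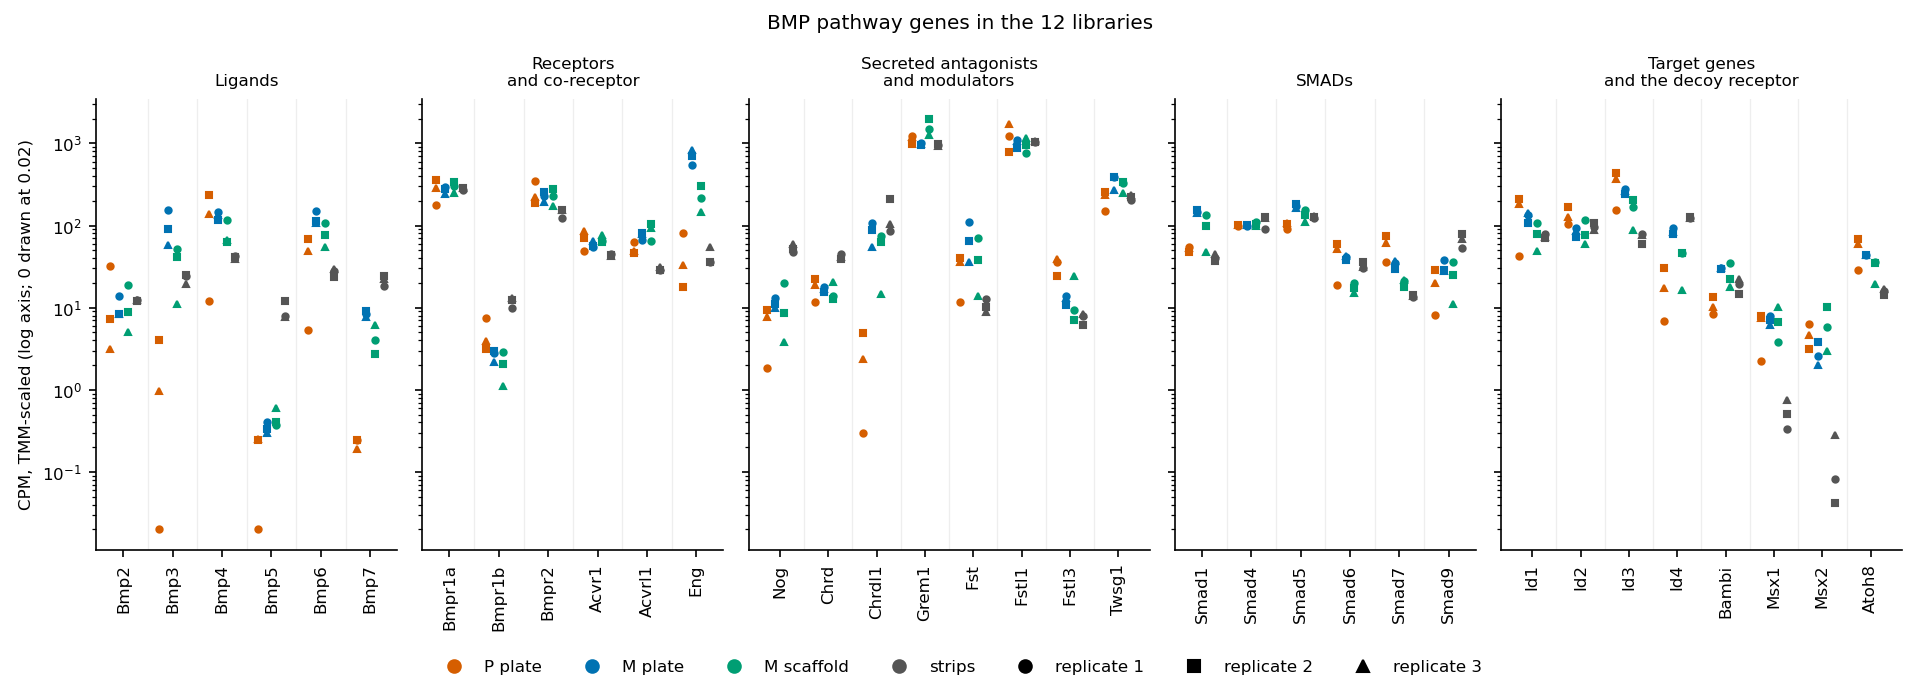
Levels of the 34 BMP pathway genes in each of the 12 libraries, grouped by role. The vertical axis is CPM on a log scale with 0 drawn at 0.02, colours are the 4 groups and shapes the replicate numbers. Bmp3, Bmp7, Chrdl1 and Eng lie far lower in P plate than in M plate, while Bmpr1a, Smad4 and Fstl1 stay within a narrow band across groups. Grem1 is highest in the M scaffold libraries.

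In M medium on a plate, 9 of the 34 genes were higher than in P medium and 2 were lower (edgeR quasi-likelihood test on all 12 libraries, Benjamini-Hochberg adjusted p under 0.05 over all 17700 genes). The higher ones were the ligands Bmp3 and Bmp7, the co-receptor Eng, the modulators Chrdl1 and Twsg1, Smad1, Smad5, Id4 and Bambi. The lower ones were Fstl3 and Smad7. As shares of the members these are 26.5% higher against 14.3% of all genes tested and 5.88% lower against 10.6%. The median log2 fold change of the members was 0.03, next to -0.00436 over all genes. For 16 members the 3 libraries of a group did not overlap those of the other, or 47.1% of members next to 41.9% of all genes tested.

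On the scaffold, 8 members were higher than in P plate and 4 were lower. Bmp3, Bmp7, Acvrl1, Eng, Chrdl1, Smad1, Smad5 and Bambi rose, and Bmpr1b, Fstl3, Smad6 and Smad7 fell. The shares were 23.5% higher against 15.1% of all genes and 11.8% lower against 9.61%. The median of the members was 0.29, next to -0.0323 over all genes, and 12 members had groups that did not overlap, or 35.3% against 34.0%. Both comparisons use the same 3 P plate libraries, so they are not independent of each other. Some calls were lost when a fit used the libraries of the 2 compared groups alone (log2 fold changes in parentheses). In M plate these were Twsg1 and Smad7, and with the replicate number as a block also Bmp3 (6.43), Chrdl1 (5.38) and Id4 (2.43). In M scaffold, Bmp7 and Smad7 were still called and the other 10 were not, among them Bmp3 (4.38), Chrdl1 (4.35), Eng (2.33) and Bambi (1.23). With the block, Bmp7 was the 1 member still called there. The share of all genes called in these smaller fits against P plate is not given. The lost calls therefore do not set the members apart from genes at large.

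The count of lower members depended on single libraries. In M plate it was 5 without P plate replicate 1, 1 without P plate replicate 2, and 0 without P plate replicate 3 or any 1 of the M plate libraries. In M scaffold it was 7 without P plate replicate 1 and 2 without M scaffold replicate 2. For the leave-outs other than that of P plate replicate 1, the share of all genes called is not given. Those counts therefore do not set the members apart from genes at large. Without P plate replicate 1, which stood apart, M plate had 10 members higher and 5 lower, where 16.7% and 13.0% of all genes were called. M scaffold then had 6 higher and 7 lower, where 16.5% and 11.5% of all genes were called. The members that joined the lower side were Acvr1, Id2 and Smad6 in M plate, and Atoh8, Bmp4, Id1, Id2 and Id3 in M scaffold. With M scaffold replicate 3 left out as well, a setting chosen after the data were seen, M plate had 11 higher and 8 lower (18.7% and 15.0% of all genes). M scaffold had likewise 11 higher and 8 lower (18.3% and 12.1%). The 8 lower in M plate in that setting were Fstl3, Acvr1, Smad6, Smad7, Id1, Id2, Id3 and Atoh8. M scaffold replicate 3 is in neither group of the M plate comparison and enters it only through the shared fit. The 8 members lower in M scaffold were Bmp4, Chrd, Fstl3, Smad6, Smad7, Id1, Id3 and Atoh8.

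**Figure D2:**
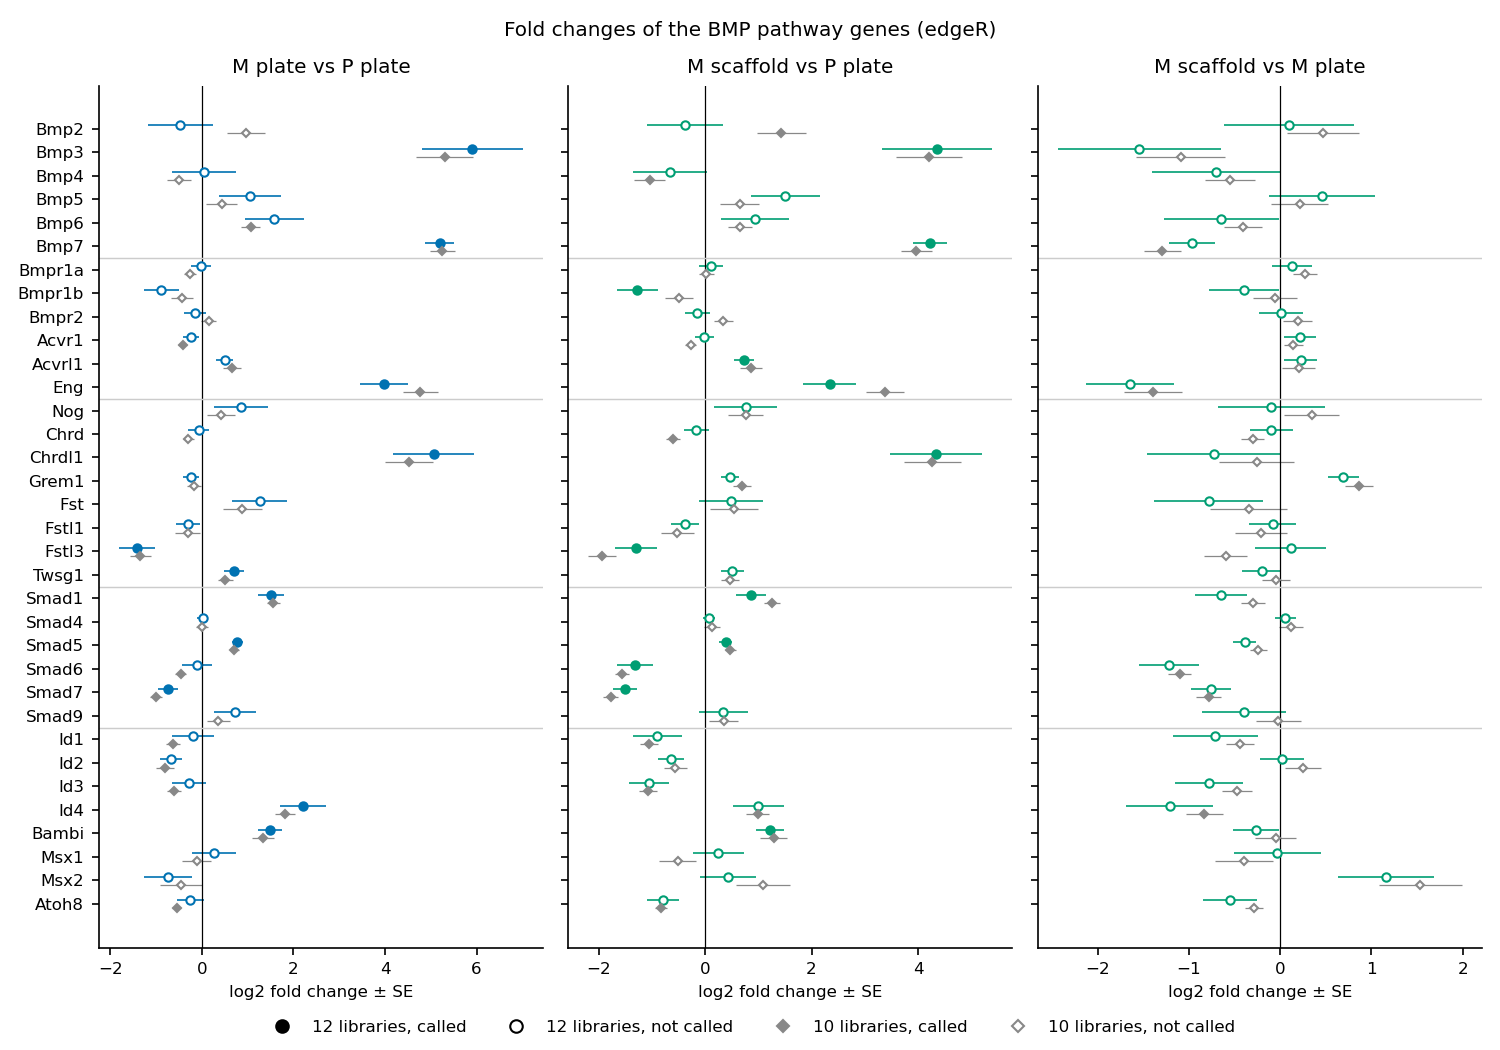
Log2 fold changes (horizontal axis, ± SE) of the 34 genes in 3 comparisons, from edgeR. Circles are the fit on 12 libraries and diamonds the fit on 10 libraries without P plate replicate 1 and M scaffold replicate 3, and filled symbols are called at an adjusted p under 0.05. Id1, Id3, Smad6 and Atoh8 sit below 0 in the 2 left panels and are filled there with 10 libraries.

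Of the 6 ligand genes, Bmp3 and Bmp7 rose in both M groups and the other 4 were not called with all libraries. Bmp3, which encodes an atypical BMP known to oppose signalling by other BMPs (ENSMUSG00000029335, GRCm38 chromosome 5, 98854415 to 98884396, plus strand), had 0, 4.09 and 0.957 CPM in the P plate libraries. M plate had 153, 89.7 and 57.9 CPM, M scaffold 51.5, 40.9 and 11 CPM, and strips 24.0, 25.1 and 19.4 CPM. Every M library lay above every P plate library, with log2 fold changes of 5.91 ± 1.10 in M plate (SE, adjusted p = 0.00349) and 4.36 ± 1.03 in M scaffold (adjusted p = 0.0115).

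Bmp7, a ligand best known from kidney development (ENSMUSG00000008999, chromosome 2, 172868012 to 172940321, minus strand), had 0.246, 0.246 and 0.191 CPM in P plate. It reached 8.48, 9.16 and 7.74 CPM in M plate, 4.03, 2.77 and 6.10 CPM in M scaffold and 18.4, 24.0 and 22.1 CPM in strips. The 4 groups did not overlap and stood in the order P plate, M scaffold, M plate, strips. Bmp7 was 36.6-fold higher in M plate than in P plate (log2 5.19 ± 0.32, adjusted p = 1.04e-05) and 18.7-fold higher in M scaffold (4.23 ± 0.31, adjusted p = 1.55e-05).

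Bmp4, with the highest mean level per exon length among the 6 ligands in all 4 groups, was not called in any M group with all libraries. Its levels were 12.1, 234 and 139 CPM in P plate, 146, 116 and 135 CPM in M plate, 115, 62.7 and 65.9 CPM in M scaffold and 42.7, 41.5 and 39.3 CPM in strips. P plate replicate 1, the library with the high macrophage sum, was far below the rest of its group, and the part of that cell type in the value was not tested. The M plate change was 0.05 ± 0.69 with it and -0.50 without it, and neither passed. The M scaffold change was -0.66 ± 0.70 (adjusted p = 0.528) with that library and fell to -1.20 ± 0.27 without it (adjusted p = 0.00814).

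Bmp6, whose product is best known for the control of iron balance, had 5.37, 68.0 and 49.3 CPM in P plate and 149, 113 and 106 CPM in M plate. All M plate libraries were above all P plate libraries, yet the change of 1.58 ± 0.64 did not pass (adjusted p = 0.0979). It passed at 1.06 ± 0.27 without P plate replicate 1 (adjusted p = 0.0161). Bmp2 overlapped between P plate (3.16 to 32.0 CPM), M plate (8.34 to 13.9 CPM) and M scaffold (5.03 to 19.0 CPM). Bmp5 was near the floor in all cultures, at 0 to 0.595 CPM. Of its exon bases, 46.7% are overlapped by the antisense gene Gm26903, and reads of the pair cannot be told apart because the library kit did not keep strand.

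Per kilobase of exon, which allows genes to be compared, Bmp4 stood at 57.1 ± 49.5 CPM in P plate, 58.9 ± 6.56 in M plate, 36.2 ± 13.1 in M scaffold and 18.3 ± 0.759 in strips (SD, n = 3). Bmp6 came second among the 6 in each group, at 10.5 ± 8.25, 31.4 ± 6.0, 20.1 ± 6.67 and 6.97 ± 0.812 CPM per kb. In P plate, Bmp4 made up 34.0% to 83.8% of the summed level of the 6 over the libraries and Bmp6 8.7% to 16.75%. Bmp2 ranged there from 1.18% to 56.9%, so the order by means did not hold in every P plate library. Bmp4 made up 54.5% ± 5.43 of the summed level of the 6 ligands in M plate and 46.4% ± 1.53 in strips. Bmp7 made up 13.6% ± 1.72 in strips but 1.97% ± 0.356 in M plate. These orders and shares cover the 6 ligands only: Gdf6, a ligand of the further list named here after its values were seen, stood at 127 ± 79.4 CPM per kb in P plate, 42.8 ± 1.82 in M plate, 31.7 ± 11.4 in M scaffold and 1.62 ± 0.698 in strips.

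**Figure D3:**
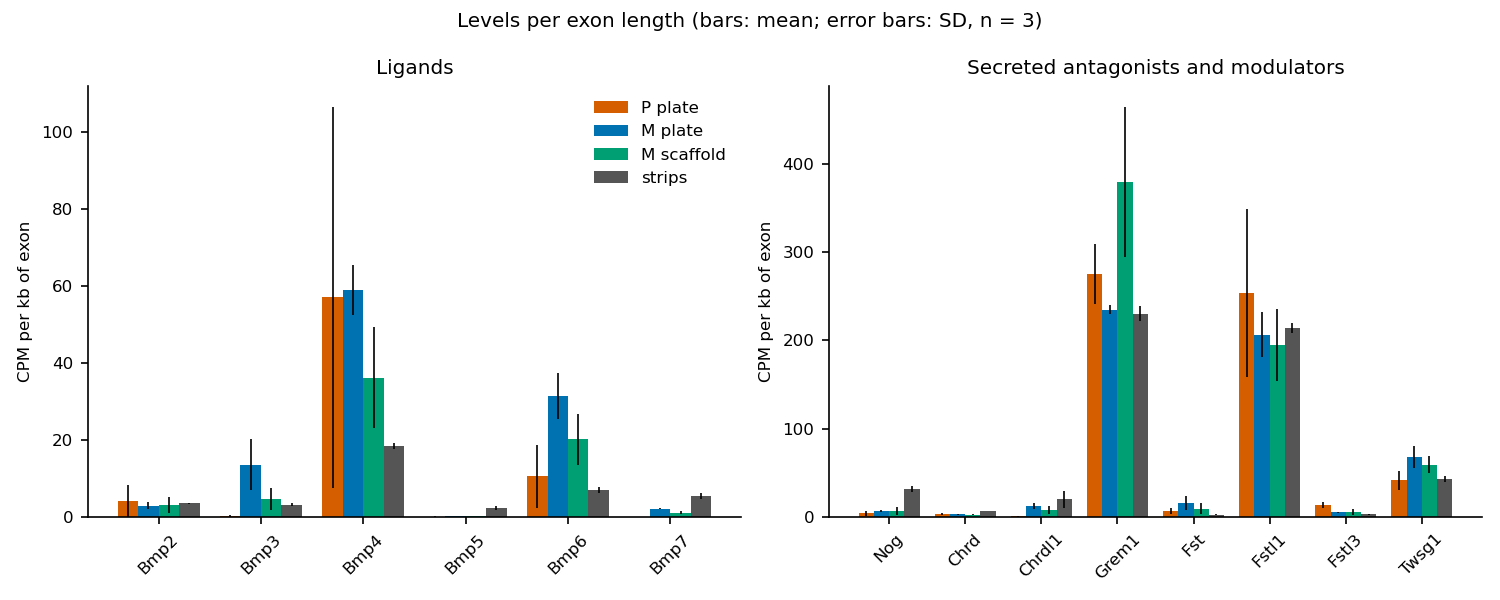
Mean levels of the ligands (left) and of the secreted antagonists and modulators (right) in CPM per kb of exon, with bars starting at 0 and error bars of 1 SD (n = 3). Of the ligands drawn, Bmp4 and Bmp6 are the tallest in each group, and Grem1 and Fstl1 the tallest modulators.

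Among the receptor genes, the co-receptor had the largest change. Eng encodes endoglin, a co-receptor abundant in endothelium (ENSMUSG00000026814, chromosome 2, 32646595 to 32682669, plus strand). It had 80.3, 17.7 and 32.9 CPM in P plate, 539, 699 and 832 CPM in M plate, 214, 302 and 148 CPM in M scaffold and 35.6, 35.6 and 54.2 CPM in strips. The groups stood apart in the order M plate, M scaffold, then P plate and strips, which overlapped. Eng was 15.8-fold higher in M plate than in P plate (log2 3.98 ± 0.53, adjusted p = 0.000463) and 5.06-fold higher in M scaffold (2.34 ± 0.49, adjusted p = 0.00598). Without P plate replicate 1 these values were 4.76 ± 0.43 and 3.12 ± 0.40.

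Summed endothelium markers were, like Eng, higher in both M groups than in P plate. They were also higher in strips than in P plate, although Eng overlapped there. Within M plate, replicate 3 had the highest Eng and the lowest sum. The 12 markers, a list without Eng, all had counts in every group and summed to 62.8 to 75.8 CPM in P plate, 1860 to 2248 CPM in M plate, 358 to 1689 CPM in M scaffold and 170 to 279 CPM in strips. The 6 lymphatic endothelium markers summed to 68.2 to 94.2, 3860 to 5003, 278 to 2020 and 45.9 to 65.0 CPM in the same order. Their part in the rise of Eng was not tested.

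**Figure D4:**
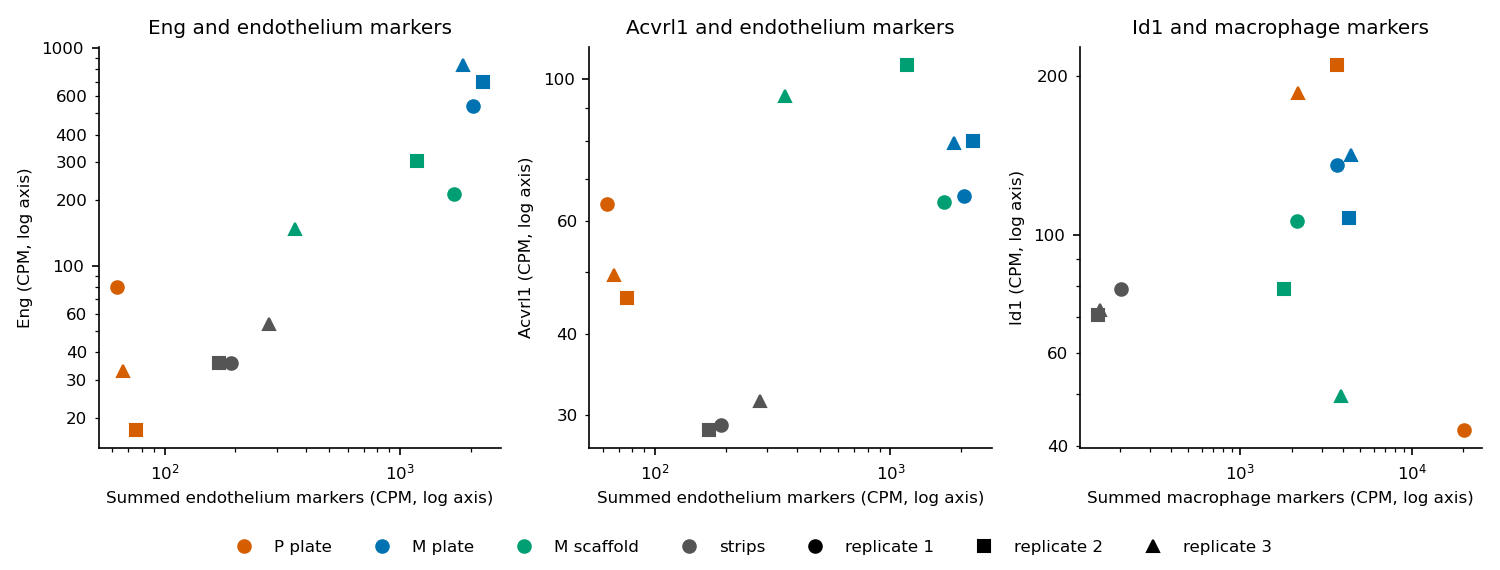
Eng and Acvrl1 against the summed level of 12 endothelium markers, and Id1 against that of 8 macrophage markers, with 1 point per library on log axes in CPM. The M plate libraries are highest in Eng and in the endothelium sum, and P plate replicate 1 is alone at the right of the Id1 panel.

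Acvrl1 encodes ALK1, the type I receptor that works with endoglin in endothelium. It had 63.8, 45.6 and 49.5 CPM in P plate, 65.7, 80.1 and 79.6 CPM in M plate, 64.4, 105 and 94.1 CPM in M scaffold and 28.4 to 31.5 CPM in strips. Both M groups were above P plate without overlap. The change passed in M scaffold (0.73 ± 0.18, adjusted p = 0.0153) and not in M plate (0.50 ± 0.18, adjusted p = 0.0683), and it passed in M plate without P plate replicate 1 (0.65 ± 0.19, adjusted p = 0.0252). The M scaffold call was lost without M scaffold replicate 2 (0.58) or P plate replicate 3 (0.68). M scaffold replicate 3, with the lowest endothelium sum of its group, was below only M scaffold replicate 2 in Acvrl1.

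Bmpr1b, a type I receptor, had 7.42, 3.17 and 3.95 CPM in P plate, 2.78, 3.00 and 2.15 CPM in M plate and 2.92, 2.05 and 1.11 CPM in M scaffold. It fell in M scaffold (-1.28 ± 0.39, adjusted p = 0.0347), a call that was lost without P plate replicate 1, M scaffold replicate 2 or M scaffold replicate 3. The type I receptor Bmpr1a ranged from 177 to 360 CPM in P plate, 242 to 293 CPM in M plate and 247 to 337 CPM in M scaffold, all overlapping. Its M plate change was -0.02 ± 0.22. The type II receptor Bmpr2 (-0.15 ± 0.24 in M plate) and the type I receptor Acvr1 (-0.23 ± 0.17) did not pass either, although Acvr1 passed without P plate replicate 1 (-0.43 ± 0.12, adjusted p = 0.0263). Per kilobase of exon, Bmpr1a was first among the 6 in P plate (43.1 ± 14.5 CPM per kb) and strips (44.3 ± 1.44), and Eng was first in M plate (170 ± 36.2) and M scaffold (54.6 ± 19.1).

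Of the secreted antagonists and modulators, Chrdl1 changed most. Chrdl1 encodes chordin-like 1, which binds BMP ligands (ENSMUSG00000031283, chromosome X, 143285674 to 143394262, minus strand). Its level was 0.301, 4.86 and 2.39 CPM in P plate, 106, 89.0 and 55.4 CPM in M plate, 73.7, 63.4 and 14.6 CPM in M scaffold and 85.7, 208 and 106 CPM in strips. All M libraries lay above P plate, M scaffold replicate 3 by the smallest margin. The log2 fold change was 5.06 ± 0.89 in M plate (adjusted p = 0.0025) and 4.33 ± 0.86 in M scaffold (adjusted p = 0.00454).

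Twsg1 encodes twisted gastrulation, a modulator of chordin. It had 150, 253 and 237 CPM in P plate, 387, 389 and 273 CPM in M plate and 327, 337 and 247 CPM in M scaffold. It rose in M plate by 0.71 ± 0.21 on the log2 scale (adjusted p = 0.0353), and this call was lost when any 1 of P plate replicates 1 and 3 and M plate replicates 1 and 2 was left out. Fstl3, a follistatin-like binder of activin and myostatin, had 36.3, 24.4 and 39.2 CPM in P plate against 13.8, 10.8 and 13 CPM in M plate and 9.25, 7.05 and 24.2 CPM in M scaffold. It fell by 1.41 ± 0.40 in M plate (adjusted p = 0.0262) and by 1.29 ± 0.39 in M scaffold (adjusted p = 0.0362). The M plate call was lost without P plate replicate 3 or any 1 of the M plate libraries, and the M scaffold call on leaving out P plate replicate 1 or 3, or M scaffold replicate 1 or 2. The gene Prss57 overlaps 47.3% of Fstl3 exon bases on the other strand. Reads there cannot be told apart by strand, and those set aside as ambiguous would be missing from the Fstl3 counts.

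The cells' own Nog RNA, which encodes Noggin, did not pass in either M group. It had 1.86, 9.47 and 7.62 CPM in P plate, 13.3, 11.1 and 9.89 CPM in M plate, 19.9, 8.57 and 3.82 CPM in M scaffold and 47.5, 51.8 and 58.8 CPM in strips. M plate lay above P plate without overlap (0.86 ± 0.60, adjusted p = 0.325), and strips lay above all cultures. Grem1 encodes the BMP antagonist gremlin 1 and had the highest mean of the 8 per kilobase of exon in each group. It stood at 276 ± 33.9 CPM per kb in P plate, 235 ± 5.30 in M plate, 380 ± 85.2 in M scaffold and 230 ± 8.70 in strips. Fstl1 followed with means of 195 to 254 CPM per kb, at 254 ± 95.2 in P plate, and was above Grem1 in P plate replicate 3. Chrd (chordin), Fst (follistatin) and Fstl1 did not pass in M plate or M scaffold against P plate, with changes between -0.38 and 1.26. Fst ranged widely within M plate, at 110, 65.0 and 35.7 CPM.

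Of the SMAD genes, the receptor-activated ones rose and the inhibitory ones fell where they were called. Smad1 had 54.0, 47.1 and 53.0 CPM in P plate, 144, 156 and 141 CPM in M plate, 135, 99.3 and 47.1 CPM in M scaffold and 37.3 to 44.5 CPM in strips. M plate stood above all other groups (1.52 ± 0.29 against P plate, adjusted p = 0.00388), whereas M scaffold replicate 3 lay just below the lowest P plate library. The M scaffold call of Smad1 (0.87 ± 0.28, adjusted p = 0.0481) was lost without P plate replicate 1, 2 or 3, or without M scaffold replicate 1 or 2. Smad5 had 91.8, 104 and 108 CPM in P plate, 172, 185 and 163 CPM in M plate and 155, 133 and 109 CPM in M scaffold. It rose by 0.78 ± 0.13 in M plate (adjusted p = 0.00155) and by 0.39 ± 0.13 in M scaffold (adjusted p = 0.0452), and the second call was lost without the same libraries as that of Smad1.

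Smad4, the common partner of the receptor-activated SMADs, lay at 97.5 to 102 CPM in P plate, 99.8 to 102 CPM in M plate and 99.7 to 111 CPM in M scaffold, with a change of 0.02 ± 0.12 in M plate. Smad9 overlapped between P plate (8.16 to 29.1 CPM) and both M groups (11.2 to 38.2 CPM).

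Smad7, which encodes an inhibitory SMAD of the BMP and TGF-beta pathways, had 35.6, 73.6 and 61.8 CPM in P plate. It had 34.9, 29.6 and 37.4 CPM in M plate, 20.9, 17.8 and 21.6 CPM in M scaffold and 13.4 to 14.4 CPM in strips. P plate replicate 1 fell inside the M plate range, and M scaffold was below both plate groups. Smad7 fell by 0.75 ± 0.22 in M plate (adjusted p = 0.0314) and was 2.83-fold lower in M scaffold (adjusted p = 0.000742). Without P plate replicate 1 the values were -1.0 ± 0.13 and -1.75 ± 0.13, and the M plate call was lost when P plate replicate 2 or 3 or any 1 of the M plate libraries was left out.

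Smad6 encodes an inhibitory SMAD that acts mainly on BMP signals (ENSMUSG00000036867, chromosome 9, 63953076 to 64022059, minus strand). It had 18.8, 60.2 and 51.7 CPM in P plate, 41.5, 38.5 and 42.1 CPM in M plate, 20.1, 17.1 and 15.2 CPM in M scaffold and 30.1 to 35.5 CPM in strips. P plate replicate 1 fell inside the M scaffold range, while the other P plate libraries were above all others. The M scaffold change was -1.32 ± 0.33 (adjusted p = 0.0152) and -1.68 ± 0.13 without P plate replicate 1. The M plate change was -0.10 ± 0.32 (adjusted p = 0.858), and it fell to -0.47 ± 0.13 without that library (adjusted p = 0.0251).

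The Id genes encode inhibitors of basic helix-loop-helix transcription factors and are the textbook readout of BMP signalling. To show the letters at which SMAD proteins are known to bind, the 250 bases before the RefSeq start of Id2, Id3 and Id4 are printed 5′ to 3′ on the gene's strand (RefSeq, GRCm38.p6), the Id genes present in the promoter table used. They lie at chr12:25096093-25096342 (minus strand), chr4:136143572-136143821 (plus strand) and chr13:48260866-48261115 (plus strand). The Id2 and Id3 stretches fall within the spans of those genes given below, so they precede the RefSeq start and not the whole annotated gene. Capitals mark GGCGCC, a GC-rich SMAD element that reads the same on both strands, and CAGAC or its reverse complement GTCTG.
Id2: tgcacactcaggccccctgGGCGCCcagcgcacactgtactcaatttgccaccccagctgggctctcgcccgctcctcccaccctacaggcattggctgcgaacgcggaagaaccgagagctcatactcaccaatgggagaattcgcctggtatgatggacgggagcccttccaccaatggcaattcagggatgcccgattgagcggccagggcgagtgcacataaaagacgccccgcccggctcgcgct
Id3: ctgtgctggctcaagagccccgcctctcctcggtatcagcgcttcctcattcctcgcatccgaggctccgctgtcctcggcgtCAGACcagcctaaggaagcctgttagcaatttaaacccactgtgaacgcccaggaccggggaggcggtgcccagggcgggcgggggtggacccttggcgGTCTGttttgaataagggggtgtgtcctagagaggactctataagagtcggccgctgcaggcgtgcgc
Id4: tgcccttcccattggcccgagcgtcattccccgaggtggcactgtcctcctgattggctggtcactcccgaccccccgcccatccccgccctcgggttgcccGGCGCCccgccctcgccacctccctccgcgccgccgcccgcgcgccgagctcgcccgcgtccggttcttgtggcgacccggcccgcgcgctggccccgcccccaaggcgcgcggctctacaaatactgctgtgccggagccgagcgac
GGCGCC was found once each before Id2 (231 bases before the start) and Id4 (148 bases before), and CAGAC or GTCTG at 167 and 68 bases before the Id3 start. The table held 27 promoters of 23 members. GGCGCC was in 8 of those 27 and CAGAC or GTCTG in 10, where 9.59% and 42.2% of all 32851 promoters of the same length held them. These matches describe letters and not bound sites.

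Id1 (ENSMUSG00000042745, chromosome 2, 152736251 to 152737410, plus strand) had 42.9, 209 and 185 CPM in P plate, 136, 108 and 141 CPM in M plate, 106, 79.2 and 49.6 CPM in M scaffold and 70.8 to 79.1 CPM in strips. P plate replicate 1 was the lowest library of all 12, while its group mates were the highest. Id3 (ENSMUSG00000007872, chromosome 4, 136143497 to 136145755, plus strand) had 153, 435 and 365 CPM in P plate, 282, 242 and 265 CPM in M plate, 166, 206 and 87.7 CPM in M scaffold and 59.3 to 79.9 CPM in strips. P plate replicates 2 and 3 were again above every other library, and strips below every culture. P plate replicate 1 was also the library with a macrophage sum of 20070 CPM and a mesothelium sum of 296 CPM. The part of those cell types in its low Id1 and Id3 was not tested.

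With all libraries neither gene passed. Id1 changed by -0.19 ± 0.46 in M plate (adjusted p = 0.803) and -0.90 ± 0.47 in M scaffold (adjusted p = 0.188), and Id3 by -0.27 ± 0.37 (adjusted p = 0.628) and -1.05 ± 0.37 (adjusted p = 0.0637). Without P plate replicate 1 both fell in M scaffold, Id1 by 1.34 ± 0.25 (adjusted p = 0.00289) and Id3 by 1.39 ± 0.28 (adjusted p = 0.00498). With M scaffold replicate 3 left out too, both were also called lower in M plate, Id1 by 0.62 ± 0.15 (adjusted p = 0.0126) and Id3 by 0.60 ± 0.16 (adjusted p = 0.0173). That library is in neither group of the M plate comparison and enters it only through the shared fit. With a single library left out, the M plate changes already reached -0.629 for Id1 and -0.612 for Id3, without a call.

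Id2 (ENSMUSG00000020644, chromosome 12, 25093799 to 25097140, minus strand) had 106, 168 and 125 CPM in P plate, 93.2, 72.3 and 85.5 CPM in M plate, 118, 77.3 and 59.4 CPM in M scaffold and 88.2 to 108 CPM in strips. All M plate libraries lay below all P plate libraries, with a change of -0.67 ± 0.24 that did not pass (adjusted p = 0.0691). Without P plate replicate 1 the change was -0.82 ± 0.25 in M plate (adjusted p = 0.0329) and -0.79 ± 0.25 in M scaffold (adjusted p = 0.0384).

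Id4 went the other way. Id4 (ENSMUSG00000021379, chromosome 13, 48261228 to 48266026, plus strand) had 6.79, 30.6 and 17.1 CPM in P plate, 92.3, 77.9 and 82.3 CPM in M plate, 46.5, 46.2 and 16.6 CPM in M scaffold and 124, 127 and 123 CPM in strips. M plate was above P plate in every library, and strips above every culture. Id4 rose in M plate by 2.21 ± 0.49 (adjusted p = 0.00911) and by 1.81 ± 0.40 without P plate replicate 1. The M scaffold change of 1.00 ± 0.48 did not pass (adjusted p = 0.154) and passed without both libraries that stood apart (0.99 ± 0.22, adjusted p = 0.00895).

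**Figure D5:**
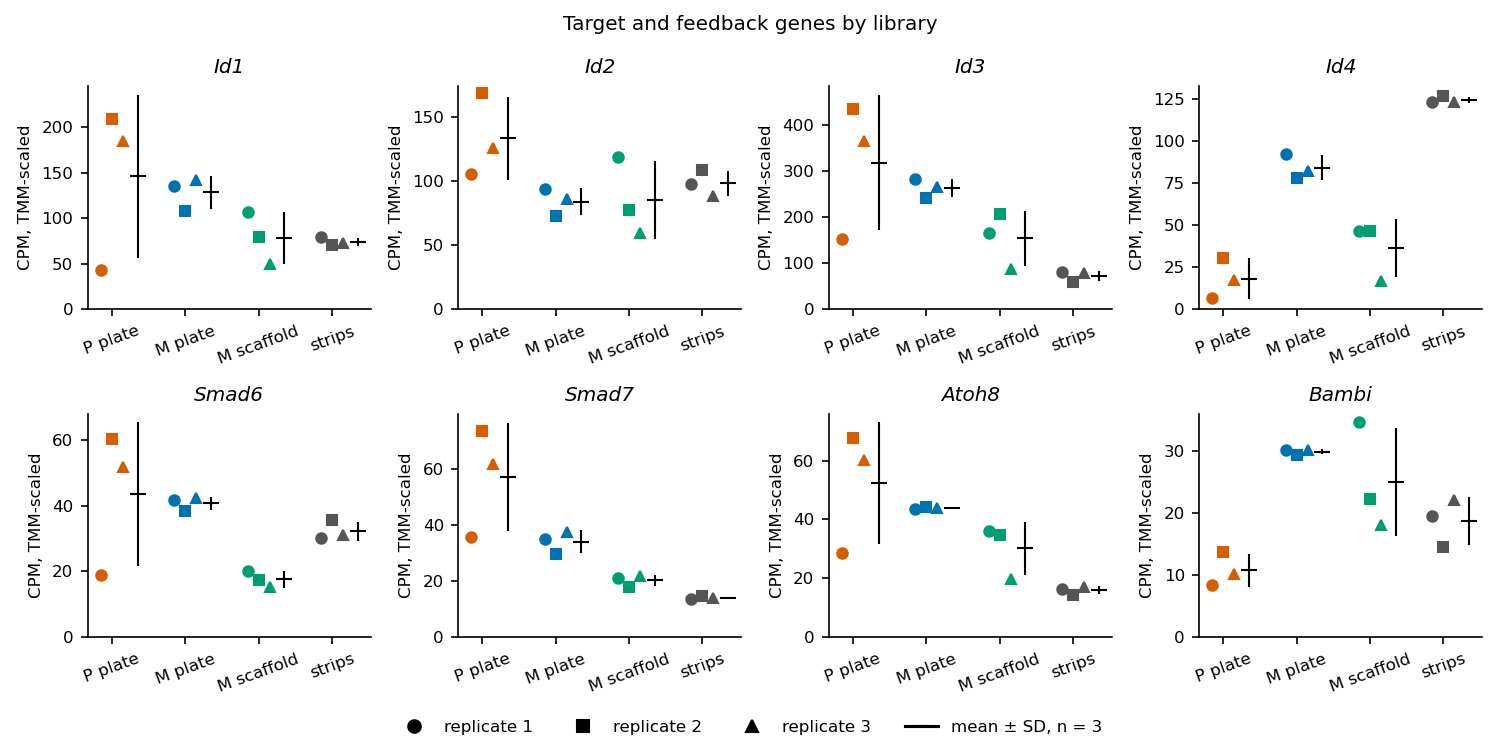
CPM of 8 target and feedback genes in the 12 libraries, with the group mean and SD (n = 3) as bars beside the points. Id1, Id3, Smad6 and Smad7 are highest in P plate replicates 2 and 3 (squares and triangles), while Id4 and Bambi are lower in P plate than in M plate.

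Bambi, the decoy receptor that lacks a kinase domain, also rose. It had 8.40, 13.7 and 10.1 CPM in P plate, 30.2, 29.5 and 30.2 CPM in M plate, 34.7, 22.2 and 18 CPM in M scaffold and 14.5 to 22.1 CPM in strips. Both M groups were above P plate without overlap (1.48 ± 0.26 in M plate, adjusted p = 0.00245, and 1.22 ± 0.26 in M scaffold, adjusted p = 0.0063). Atoh8, a helix-loop-helix factor induced by BMP signals, had 28.7, 67.8 and 60.4 CPM in P plate, 43.6, 44.3 and 43.9 CPM in M plate and 36.0, 34.8 and 19.6 CPM in M scaffold. Its changes of -0.25 ± 0.30 and -0.80 ± 0.30 did not pass (adjusted p = 0.574 and 0.077). Without P plate replicate 1 the M scaffold change was -1.09 ± 0.21 (adjusted p = 0.00379). The homeobox targets Msx1 (2.22 to 10.2 CPM over the cultures) and Msx2 (2.03 to 10.2 CPM) overlapped between all 3 cultured groups.

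Between scaffold and plate in M medium, edgeR called none of the 34 members at an adjusted p under 0.05, where 1.53% of all genes were higher and 1.64% lower. At an unadjusted p under 0.05 there were 8 members, 1 higher (Grem1) and 7 lower (Bmp7, Eng, Smad1, Smad5, Smad6, Smad7 and Id4). These are 2.94% higher against 11.5% of all genes tested and 20.6% lower against 9.95%. The groups did not overlap for 13 members, 1 higher and 12 lower, or 38.2% of members next to 33.3% of all genes tested. The median of the members was -0.33, next to 0.00976 over all genes. The closest to the threshold were Grem1 (0.69 ± 0.17, adjusted p = 0.0578), Bmp7 (-0.97 ± 0.25, adjusted p = 0.0612), Smad6 (-1.22 ± 0.33, adjusted p = 0.0697), Smad7 (-0.76 ± 0.22, adjusted p = 0.0844) and Eng (-1.64 ± 0.48, adjusted p = 0.0849).

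Other fits of the same libraries made calls. DESeq2 called Grem1 higher and Bmp7, Eng, Smad5, Smad6 and Smad7 lower, where it called 6.47% of all genes higher and 4.93% lower, and limma-voom called Grem1 higher and none lower. With the replicate number as a block and only the M plate and M scaffold libraries, edgeR called 7 members lower and none higher, against 5.18% and 4.42% of all genes. Those 7 were Bmp3, Bmp4, Bmp6, Eng, Fst, Smad6 and Smad7, with values from -0.67 ± 0.12 for Bmp6 to -1.69 ± 0.25 for Bmp3. Same-numbered M plate and M scaffold libraries deviated together from their group means, which is why this fit is given. With P plate replicate 1 and M scaffold replicate 3 left out, edgeR called Grem1 higher (0.86 ± 0.15, adjusted p = 0.0148). It then called 5 lower (Bmp7, Eng, Smad6, Smad7 and Id4), against 4.12% and 3.58% of all genes. Smad6 was at -1.10 ± 0.12 (adjusted p = 0.00411) and Eng at -1.39 ± 0.32 (adjusted p = 0.0343) in that fit. This setting was chosen after the data were seen, and P plate replicate 1 enters the comparison only through the shared fit. With M scaffold replicate 3 alone left out, 1 member was called higher and 1 lower, and the share of all genes is not given there. The endothelium and lymphatic endothelium sums were also lower on the scaffold than in M plate, and their part in the lower Eng was not tested.

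Against native strips, the cultures differed in 19 or 20 of the 34 members. P plate had 9 higher and 11 lower, against 30.5% and 32.7% of all genes. M plate had 14 higher and 5 lower, against 26.5% and 28.4%. M scaffold had 11 higher and 8 lower, against 24.5% and 27.6%. The 3 comparisons share the strips libraries. Smooth muscle marker sums were higher in strips than in any culture, as given above, and so were enteric neuron sums (1113 to 1453 CPM in strips). Macrophage sums were lower in strips, at 149.2 to 202.5 CPM against 1813 to 20070 CPM in the cultures. Endothelium sums in strips lay above P plate and below both M groups. The part of these cell types in the differences was not tested.

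Nog was lower in each culture than in strips: -3.06 ± 0.63 in P plate (adjusted p = 0.00172), -2.21 ± 0.61 in M plate (adjusted p = 0.0106) and -2.30 ± 0.61 in M scaffold (adjusted p = 0.00964). Chrd was lower too, at 11.6 to 22.5 CPM over the cultures against 38.7 to 44.6 CPM in strips. The ligand Bmp5 had 7.77 to 11.9 CPM in strips, and its changes lay between -5.79 and -4.29. Bmp7 was 92.9-fold lower in P plate than in strips and 2.54-fold lower in M plate (adjusted p = 4.8e-07 and 0.00113). Bmpr1b, at 9.97 to 13.2 CPM in strips, fell by 1.28 ± 0.38, 2.16 ± 0.39 and 2.56 ± 0.40 in P plate, M plate and M scaffold. Grem1 was higher in M scaffold than in strips (0.72 ± 0.17, adjusted p = 0.00564) and was not called in P plate or M plate.

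Of the 8 genes in the group of targets and decoy receptor, 4 were higher than in strips and 2 lower in P plate, 5 and 0 in M plate, and 4 and 1 in M scaffold, beside the shares of all genes given above. The 12 target genes of the further pathway list described below gave 2 higher and 9 lower in P plate, 2 and 8 in M plate, and 2 and 8 in M scaffold, with median log2 differences of -3.29, -1.83 and -1.64. Msx1 had 0.329 to 0.754 CPM in strips, and Msx2 had 0.0417 to 0.278 CPM there, near the floor. Msx1 was 3.42 ± 0.54 higher in P plate, 3.69 ± 0.55 in M plate and 3.67 ± 0.55 in M scaffold on the log2 scale. Id3 was higher by 2.14 ± 0.38, 1.86 ± 0.38 and 1.08 ± 0.37 in the same order (adjusted p = 0.000716, 0.00207 and 0.0316). Smad7 was higher by 2.04 ± 0.23 in P plate and 1.29 ± 0.22 in M plate. Smad6 was lower than strips in M scaffold (-0.88 ± 0.33, adjusted p = 0.0428), and Id4 was lower in P plate (-2.78 ± 0.50) and M scaffold (-1.78 ± 0.48).

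A further 45 genes of the pathway, listed by role but with earlier results of these data known, gave 40 that passed the low-count filter. In M plate against P plate, 9 were higher and 3 lower, where 14.3% and 10.6% of all genes were called. In M scaffold against P plate, 14 were higher and 7 lower (15.1% and 9.61% of all genes). Between scaffold and plate, 1 was higher and 3 lower (1.53% and 1.64%). The ligand gene Gdf10 (also called Bmp3b) had 0.821, 1.26 and 2.10 CPM in P plate against 43.0, 56.0 and 41.5 CPM in M plate (5.08 ± 0.53, adjusted p = 0.000113), and 51.2, 133 and 209 CPM in M scaffold. Zfp423, a zinc-finger partner of SMAD proteins, had 0.411, 3.17 and 1.44 CPM in P plate against 30.5, 41.5 and 34.3 CPM in M plate (4.41 ± 0.59, adjusted p = 0.000501). The ligand gene Gdf7 rose by 4.06 ± 0.84, from 0.110 to 0.383 CPM in P plate to 3.25 to 5.62 CPM in M plate. Sostdc1, which encodes a secreted BMP and Wnt antagonist, had 0.164, 0 and 0.319 CPM in P plate, near the floor. It rose by 3.19 ± 0.63 to 1.37 to 1.60 CPM in M plate and by 5.07 ± 0.64 to 3.54 to 7.67 CPM in M scaffold.

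The transcription factor genes Hey1 and Hey2, also Notch targets, rose by 3.21 ± 0.33 and 1.81 ± 0.34 in M plate. Tmem100, an endothelial gene downstream of Acvrl1, rose by 1.73 ± 0.38 in M plate, to 8.93 to 11.7 CPM from 1.35 to 5.20 CPM. It was lower on the scaffold than on the plate (-1.61 ± 0.37, adjusted p = 0.0476), at 2.93 to 4.46 CPM. Bmper, an extracellular modulator of BMP ligands, had 176, 402 and 512 CPM in P plate against 140, 102 and 117 CPM in M plate and fell by 1.60 ± 0.39. The other genes called between scaffold and plate were Tbx2, a T-box factor, at 16.4 to 22.2 CPM on the scaffold against 7.84 to 11.7 CPM (1.04 ± 0.22, adjusted p = 0.0409), Crim1, which encodes a membrane protein that binds BMPs (-1.35 ± 0.27, adjusted p = 0.0311), and Gata2, an endothelial and blood transcription factor (-1.63 ± 0.37, adjusted p = 0.0469).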

How the data were processed

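RNA was measured in 12 libraries, 3 per group, described by the series text as biologically independent replicates. The deposited values are raw counts per Ensembl gene, 1 column per sample, although the series text speaks of technical replicates for each sample. The aligner STAR 2.6.0 and the genome build GRCm38/mm10 are named, per the submitters' processing notes. Libraries were made with the TruSeq RNA kit v2, per the labels' protocols, a kit that does not mark strand. For the counting program, annotation and strand setting, nothing is given in the sources used here. Reads outside annotated features were 4.20% to 7.87% of a library and ambiguous reads 3.12% to 3.87%, and both stayed out of library sizes. Of the 52550 genes, 52403 were matched to GENCODE M21 symbols.

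All 12 libraries entered 1 edgeR fit (4.0.16, R 4.3.3) with group as the only term, the default low-count filter and TMM factors of 0.893 to 1.15. Calls were made at an adjusted p under 0.05 over 17700 genes. Each p-value sets a difference between groups against the spread between these libraries, estimated in the shared fit of all 12. The SE given with an edgeR log2 fold change is its absolute value divided by the square root of the F statistic. It is not a separately estimated error of the coefficient. The fit was tested on simulated counts. CPM and CPM per kb of exon describe levels. Alternatives were DESeq2 1.42.0, limma-voom (limma 3.58.1), other scaling, no filter, only the compared libraries, a replicate block, each library left out in turn, and 2 libraries left out together. The members and all lists were chosen with earlier results of these data known. All members are reported, with library values for those called between cultures and for the Id genes. Of the other pathway genes, the text names the 8 called in M plate with the largest change at a mean of at least 1 CPM and every gene called between scaffold and plate.

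Replicate numbers paired M plate with M scaffold only: same-numbered libraries deviated together from their group means over genes (r = 0.366, 0.306 and 0.363, log2 of CPM plus 1), whereas P plate and M plate gave -0.0684, 0.0855 and 0.0525. The block is therefore given beside the scaffold against plate result.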

Additional observations from a re-analysis of the deposited data

How the results depend on the processing

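Of 81 member values called over the 6 comparisons, 49 were called under every alternative run (at most 14 each), and 32 lost the call under at least 1. Levels that rest on few counts include those of Bmp5 in culture, Bmp3, Bmp7, Gdf7 and Sostdc1 in P plate and Msx1 and Msx2 in strips. Where no cause is named, the cause was not tested.

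In M plate against P plate (9 higher, 2 lower), the replicate block on the compared libraries gave 5 higher and 1 lower, and the block on all libraries 1 lower. The compared libraries alone gave 1 lower. Leaving out 1 library gave 0 to 5 lower. In M scaffold against P plate (8 higher, 4 lower), the compared libraries alone gave 1 higher and 1 lower, and the replicate block on them 1 higher and 0 lower. Leaving out 1 library gave 5 to 9 higher and 2 to 7 lower. These pairs of groups share numbers only. With P plate replicate 1 and M scaffold replicate 3 left out together, a setting chosen after seeing the data, 8 were lower in each. Between scaffold and plate (0 and 0), limma-voom gave 1 higher, DESeq2 1 higher and 5 lower, the compared libraries alone 3 lower, the paired fit with the replicate block 7 lower, leaving out 1 library 0 to 1 in either direction, and both libraries left out 1 higher and 5 lower. Against strips, P plate had 15 higher with both left out (9 with all), and M scaffold had 7 to 11 higher when 1 library was left out. For settings whose share of all genes is printed nowhere above, such as the compared libraries alone, a changed count does not set the members apart from genes at large.

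The direction turned for these values, none of which had been called. Id3 in M plate was 0.0215 without P plate replicate 2, within -0.612 to 0.0215 over single libraries left out. Bmp4 in M plate was -0.501 without P plate replicate 1, -0.04 without M plate replicate 1 and -0.493 with both libraries left out, within -0.501 to 0.813. Smad6 in M plate was 0.0841 by limma-voom, 0.0448 with the replicate block, 0.21 without P plate replicate 2 and 0.0363 without replicate 3, within -0.466 to 0.21. Id1 in M plate was 0.0942, 0.059, 0.169 and 0.0153 in the same settings, within -0.629 to 0.169. Bmp4 in M scaffold was 0.11 by limma-voom and 0.109 without P plate replicate 2, within -1.2 to 0.109.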
